A study of Mus musculus with 6 samples.

Results

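The keratins are the intermediate filament proteins of epithelial cells, and their genes were examined here in the mouse uterus with and without deletion of Foxo1. Members were all genes of the deposited table whose symbol is Krt followed by a number and, in some, the letter a or b, which leaves out the keratin-associated proteins. This gave 52 of 23420 genes. Total RNA came from uteri of C57BL/6J females aged 8 weeks at pseudopregnancy day (PPD) 4.5, reached by mating with vasectomized males. Control females were Foxo1f/f. The others were PgrCre/+ Foxo1f/f, called Foxo1d/d below, in which both copies of Foxo1 carry loxP sites as in the controls and Cre is made wherever the progesterone receptor gene is active, that is in the uterine epithelium, stroma and muscle and also in the pituitary and ovary. Each genotype was sequenced as 3 libraries, and every library pooled RNA of 2 mice. The RNA methods, which speak of mice after surgery, say that the horns were taken without the cervix, and whether this held for these pools is not stated.

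A keratin filament is built from pairs of 1 type I chain and 1 type II chain, so neither type forms filaments alone. A one-layered epithelium, such as the LE that lines the uterine lumen and the GE of its glands, is known for Krt8 and Krt7 of type II with Krt18 and Krt19 of type I, called the simple keratins. In a stratified epithelium such as epidermis, vagina or cornea, the basal layer makes Krt5 with Krt14 or Krt15, and the layers above exchange these for suprabasal pairs such as Krt1 with Krt10. Other members belong to hair, nail and the root sheath of the hair follicle.

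Of each gene the authors' mean count in each genotype was used, and the table holds no counts of single libraries, so no SD between pools, test or replicate check was computed here. Ratios of Foxo1d/d to Foxo1f/f were taken after adding 1 count to each mean and scaling by the column total. The 3 libraries of a genotype held 78375043 counts in Foxo1f/f against 81773890 in Foxo1d/d. Intervals in brackets are exact 95% Clopper-Pearson intervals from the summed counts of the 3 libraries, with nothing added, so that at few counts a ratio lies toward 1 within its interval. They cover counting error only, not the differences between mice, and reads without molecular identifiers are not independent molecules. Foxo1 itself had a mean of 3941 counts in Foxo1f/f against 1456 in Foxo1d/d, a log2 ratio of -1.50 (-1.55 to -1.45).

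As sums, the stratified keratins were higher in Foxo1d/d uteri by more than the simple keratins, and among the stratified classes the ratio was largest for the basal keratins. The 4 simple keratins together had 321 counts per 1000000 (CPM) in Foxo1f/f against 407 in Foxo1d/d, 1.27-fold higher (1.24 to 1.29). Without Krt18, the most abundant of them, the log2 ratio of this sum was 0.59 in place of 0.34. The 21 stratified keratins in the table, basal, suprabasal and stress or appendage keratins as 1 sum, had 20.8 CPM in Foxo1f/f against 44.7 in Foxo1d/d, 2.14-fold higher (2.02 to 2.28). Within it, the 3 basal keratins were 6.84-fold higher (5.97 to 8.06) and the 5 stress or appendage keratins, nearly all Krt17, 2.99-fold (2.38 to 3.99). The 13 suprabasal keratins were 1.38-fold higher (1.28 to 1.48), close to the simple sum, and the simple keratin Krt19 had a higher ratio than any suprabasal keratin with a mean of at least 10 counts. The log2 ratio of the stratified sum exceeded that of the simple sum by 0.76 (0.67 to 0.85). The stratified share of the simple plus stratified counts was 6.09% (5.80 to 6.38) in Foxo1f/f against 9.90% (9.60 to 10.2) in Foxo1d/d. The simple keratins therefore held most of these counts in both genotypes. In RNA of undivided tissue, more or fewer cells of a type and more or less RNA per cell cannot be told apart.

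A mean over both genotypes of at least 10 counts was reached by 17 of the 52 keratins. Of these 17, 8 were at least 1.5-fold higher in Foxo1d/d, whereas 5.43% of all 15696 genes with such a mean were. Krt2, 1 of the 8, reached that mean only through its counts in Foxo1d/d. None of the 17 was 1.5-fold lower, beside 3.51% of all genes. Genes with few counts pass a fold more readily, and 11 of the 17 had a mean of 10 to 150 counts. Of those 11, 7 were at least 1.5-fold higher, beside 15.3% of all 3319 genes in that range. With a minimum mean of 50 counts, 5 of 12 keratins were at least 1.5-fold higher and none lower, beside 3.81% and 2.58% of all genes. Of these 5, Krt5, Krt15 and Krt17 reached that minimum only through their counts in Foxo1d/d. With a minimum of 1 count, 13 of 30 were higher and 1 was lower, beside 7.52% and 5.13%. Of these 13, Krt86, Krt35 and Krt16 reached that minimum only through their counts in Foxo1d/d. With no minimum, 18 of 52 were higher and 1 was lower, beside 6.78% and 4.85%, and there 0 against 2 summed counts is enough to pass. Of these 18, Krt9, Krt82, Krt81 and Krt42 had 0 counts in Foxo1f/f. At least 2-fold higher were 6 of the 17, beside 1.99% of all genes. The median log2 ratio was 0.58 over the 17 keratins and 0.02 over all genes with a mean of at least 10. Counting intervals lay above 0 for 11 of the 17, below 0 for Krt23 alone, and held 0 for the other 5. At this depth small differences give such intervals, and over all genes with that mean 36.4% lay above 0 and 27.1% below.

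**Figure D1:**
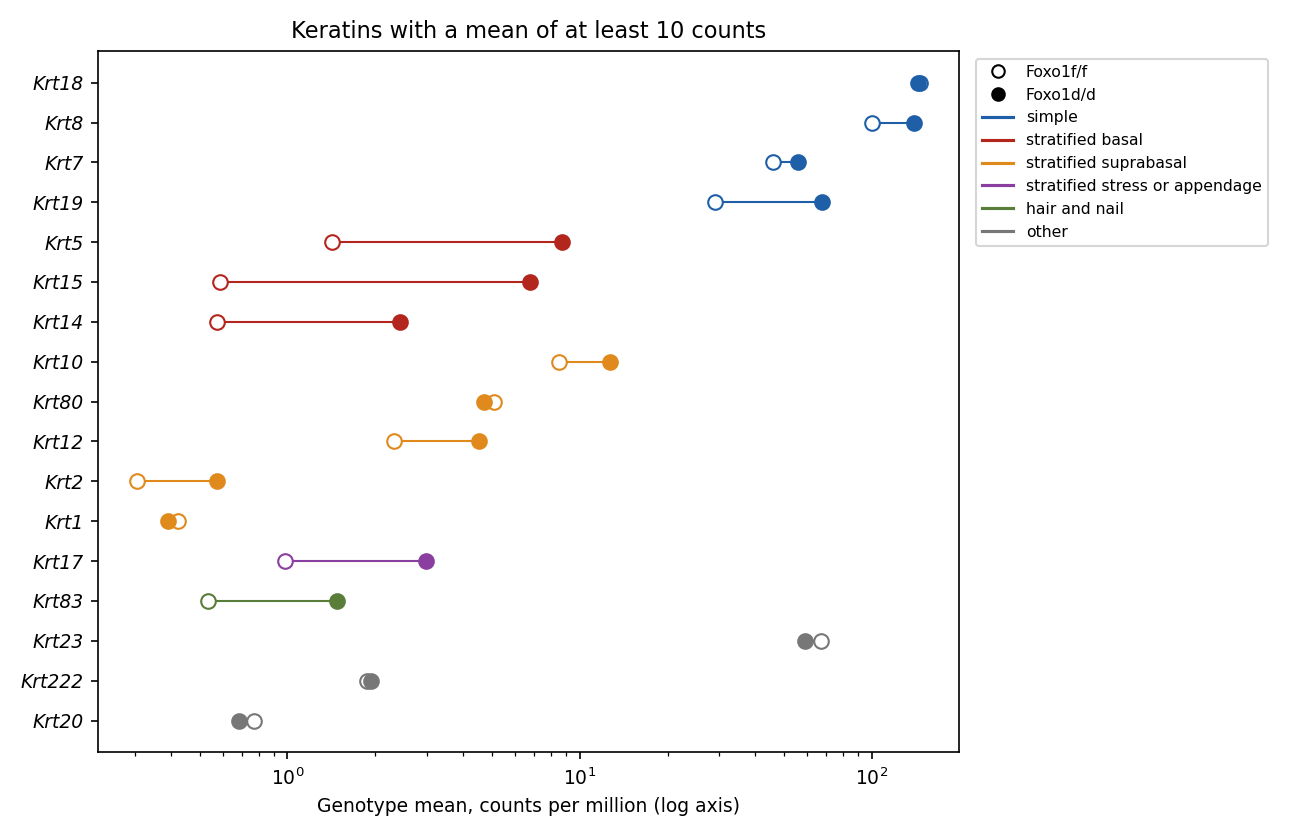
Genotype means of the 17 keratins with a mean of at least 10 counts, in CPM on a log axis, with Foxo1f/f as open and Foxo1d/d as filled circles and colour for the keratin class. The 3 basal keratins (red) are the genes with the widest gaps, while Krt18 at the top has nearly the same mean in both genotypes.

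Among the simple keratins, the pair that is laid down first in embryonic epithelia differed between its chains. Krt18, the type I partner, had means of 3831 and 3918 counts in Foxo1f/f and Foxo1d/d, a log2 ratio of -0.03 (-0.07 to 0.01). Krt8, its type II partner, had 2612 and 3805 counts, a log2 ratio of 0.48 (0.44 to 0.52). These 2 genes lie near each other on chromosome 15, where Krt18 is the single type I gene beside the type II cluster. A Krt8 pseudogene is annotated elsewhere in the genome, and reads may be shared with such copies.

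Krt19, a small type I keratin that lacks most of the tail domain, had the highest ratio of the simple class. Its mean was 757 counts in Foxo1f/f against 1842 in Foxo1d/d, a log2 ratio of 1.22 (1.15 to 1.29) or 2.33-fold. Krt7, a type II keratin of ducts, glands and the female tract, had 1196 and 1519 counts, a log2 ratio of 0.28 (0.22 to 0.35). Of the 4 simple keratins, Krt19 alone was past 1.5-fold.

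Scaled by exon length, which allows levels of different genes to be compared, the simple keratins kept their order at the top and changed places below it. Krt18 had 104.7 CPM per kilobase (kb) in Foxo1f/f against 102.7 in Foxo1d/d. Krt8 had 55.4 and 77.3 CPM per kb. In Foxo1f/f the order below Krt8 was Krt7 at 28.9 and then Krt19 at 21.0 CPM per kb. In Foxo1d/d Krt19 at 48.9 stood above Krt7 at 35.1 CPM per kb. The length-scaled level of Krt18 was 1.89 times that of Krt8 in Foxo1f/f and 1.33 times in Foxo1d/d. Krt19 stood at 0.20 times the level of Krt18 in Foxo1f/f and at 0.48 times in Foxo1d/d.

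Taken as partner types, the simple keratins differed less than as single genes. The length-scaled sum of type I (Krt18 and Krt19) was 1.49 times that of type II (Krt7 and Krt8) in Foxo1f/f and 1.35 times in Foxo1d/d. The log2 ratio of the type II sum of counts exceeded that of the type I sum by 0.16 (0.11 to 0.20). Over all 52 members, the type I sum had a log2 ratio of 0.23 (0.20 to 0.26) and the type II sum one of 0.46 (0.43 to 0.50), a difference of type I minus type II of -0.23 (-0.28 to -0.19). Medians over the members with a mean of at least 10 counts stood in the other order, with 0.77 over 10 of type I and 0.48 over 7 of type II. The type I sum consists mainly of Krt18, Krt19 and Krt23, and the type II sum of Krt7 and Krt8.

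**Figure D2:**
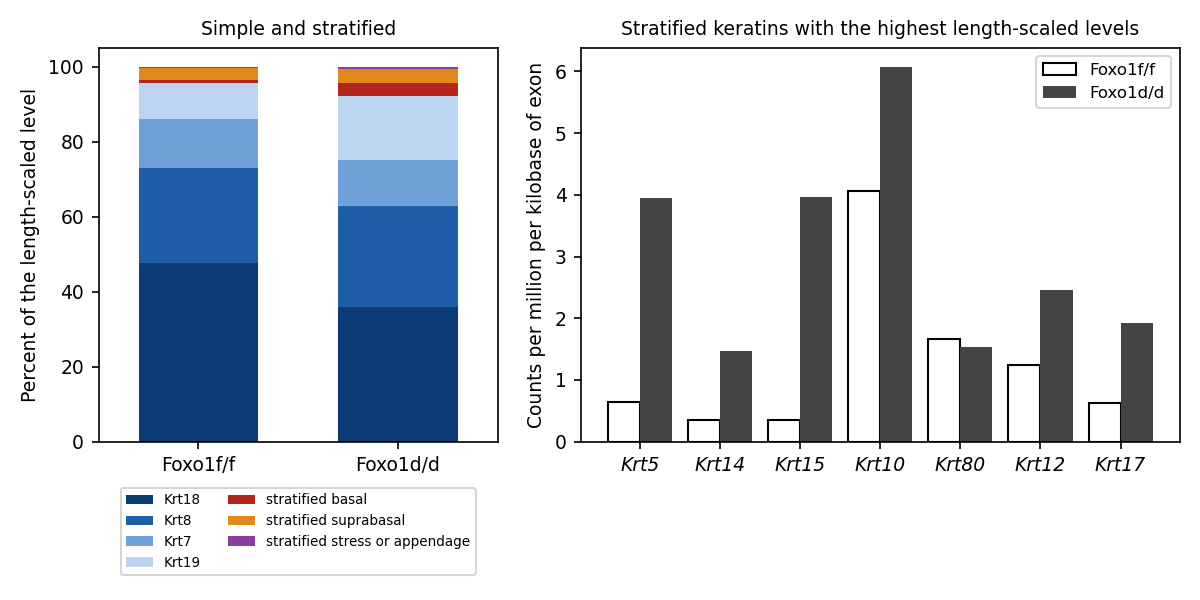
Left, percent of the summed length-scaled level of the simple and stratified keratins held by each simple keratin and by each stratified class. Right, CPM per kilobase of exon for 7 stratified keratins in Foxo1f/f (open bars) and Foxo1d/d (filled bars). Krt18 takes 47.7% of the left bar in Foxo1f/f against 35.9% in Foxo1d/d, and on the right Krt5 and Krt15 reach about the same height in Foxo1d/d.

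All 3 basal keratins were higher in Foxo1d/d. Krt5, the type II chain of basal cells, had a mean of 37 counts in Foxo1f/f against 236 in Foxo1d/d, a log2 ratio of 2.58 (2.32 to 2.92) or 5.99-fold. Krt14, its usual type I partner, had 15 and 66.3 counts, a log2 ratio of 2.01 (1.61 to 2.58). Krt15, the type I chain of basal cells and hair bulge cells, had 15.3 and 183.7 counts, a log2 ratio of 3.44 (3.09 to 3.99). Ranked by log2 ratio among the 15696 genes with a mean of at least 10 counts, Krt15 was number 4 from the top, Krt5 number 12 and Krt14 number 49. The basal sum was 2.58 CPM in Foxo1f/f against 17.8 in Foxo1d/d, 6.84-fold higher (5.97 to 8.06).

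Summed by partner type, the basal keratins were nearer each other in level than as single genes, and Krt14 alone stood below Krt5 in both genotypes. Length-scaled, Krt5 had 0.64 CPM per kb in Foxo1f/f against 3.95 in Foxo1d/d. Krt15 had 0.35 and 3.97, and Krt14 had 0.35 and 1.47 CPM per kb. The type I sum of Krt14 and Krt15 was thus 1.07 times the level of Krt5 in Foxo1f/f and 1.38 times in Foxo1d/d. The log2 ratio of the type I sum exceeded that of Krt5 by 0.36, with a counting interval of -0.07 to 0.81, so a difference between the partner types was not detectable at this depth. Krt8 stood 85.9 times above Krt5 per length in Foxo1f/f and 19.6 times above it in Foxo1d/d. Krt14 shares long stretches of near-identical sequence with Krt16 and Krt17, so some reads of these genes may be assigned to a relative.

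The suprabasal keratins differed among themselves. Krt10, the type I chain of cornified epidermis, had the most counts of the class and of all stratified keratins. Its means were 222 and 347 counts, a log2 ratio of 0.58 (0.44 to 0.72), which is 1.49-fold and just short of 1.5-fold. Its type II partner in epidermis, Krt1, had 11 and 10.7 counts, a log2 ratio of -0.10 (-0.85 to 0.64). Krt10 was thus present with few counts of its epidermal partners, since Krt2, the late type II chain of epidermis, had 8 counts in Foxo1f/f against 15.7 in Foxo1d/d, a log2 ratio of 0.83 (0.17 to 1.68). Krt12, the type I keratin of corneal epithelium, had 60.3 and 123.7 counts, a log2 ratio of 0.96 (0.71 to 1.24). Krt12 overlaps a long noncoding RNA gene, and since the counting is not stated to use strand, reads of the 2 cannot be told apart. Krt80, a widely made type II keratin found near desmosomes, had 132.7 and 128.3 counts, a log2 ratio of -0.11 (-0.32 to 0.10), and also overlaps other annotated genes.

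The other 8 suprabasal keratins had means over both genotypes of 0 to 5.83 counts. Krt4 and Krt13, the pair of the suprabasal layers of vagina, oesophagus and tongue, were among them. Krt4 had 14 summed counts in Foxo1f/f against 21 in Foxo1d/d, and Krt13 had 10 and 19. Both counting intervals held a ratio of 1. Krt78 had 13 and 12 summed counts and Krt79 had 9 and 8. Krt76, Krt9, Krt24 and Krt77 had at most 3 summed counts in either genotype, and Krt24 and Krt77 had none. The suprabasal sum was 1.38-fold higher in Foxo1d/d (1.28 to 1.48), against 6.84-fold for the basal sum.

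Krt17, a type I keratin of hair follicles, glands and injured epidermis, was the only stress or appendage keratin with a mean of at least 10 counts. It had 25.7 counts in Foxo1f/f against 81.3 in Foxo1d/d, a log2 ratio of 1.57 (1.23 to 1.99). Its type II partners in injured epidermis, Krt6a and Krt6b, had 1 and 1 summed counts in Foxo1f/f against 4 and 1 in Foxo1d/d. Krt16, which is made with them, had 1 and 6 summed counts. Krt75, of the companion layer of the hair follicle, had 0 and 1. The wound-induced keratins other than Krt17 were therefore near the limit of detection in both genotypes.

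**Figure D3:**
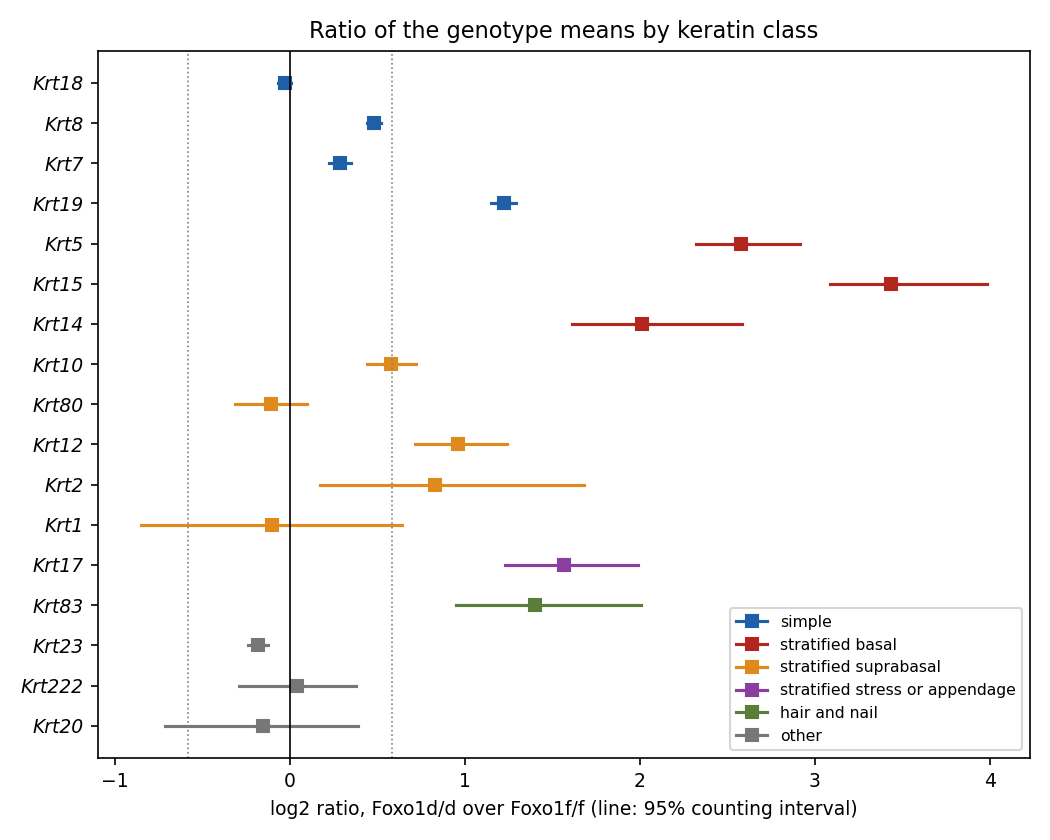
Log2 ratio (Foxo1d/d against Foxo1f/f) for the 17 keratins with a mean of at least 10 counts, with 95% counting intervals as lines, dotted lines at 1.5-fold in either direction and colour for the keratin class. Krt15, Krt5 and Krt14 have the highest ratios, from 2.01 to 3.44, and the 5 genes whose intervals cross 0 are Krt18, Krt80, Krt1, Krt222 and Krt20.

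Among the hair and nail keratins, 1 of 15 had a mean of at least 10 counts. It is listed as Krt83, but its Entrez gene number, 406219, belongs to the gene that RefSeq now names Krt87, and it is the one member of 51 matched by number whose symbol differs. It had 14 counts in Foxo1f/f against 40.3 in Foxo1d/d, a log2 ratio of 1.40 (0.95 to 2.01). It is the next gene after Krt7 on chromosome 15, with no RefSeq gene between them, and whether any of its reads stem from Krt7 transcripts was not tested. Krt85 had 17 and 37 summed counts, a ratio of 1.92 (1.15 to 3.95). Krt86 had 2 and 22 summed counts, a ratio of 4.79 (2.59 to 92.5), and Krt35 had 2 and 11, a ratio of 2.68 (1.15 to 48.9). The hair keratins of type II, among them Krt81 and Krt86, are near-identical in long stretches, so these counts are uncertain. The remaining 11 had at most 10 summed counts in a genotype, and Krt32, Krt33b and Krt34 had none. Summed over the class, hair and nail keratins had 83 counts in Foxo1f/f against 219 in Foxo1d/d.

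The keratins of the inner root sheath had few or no counts. Krt71, Krt72, Krt73, Krt74 and Krt27 had no count in either genotype. Krt25 had 13 summed counts in Foxo1f/f against 5 in Foxo1d/d, Krt28 had 4 and 4, and Krt26 had 2 and 2. Their sum of 19 counts in Foxo1f/f against 11 in Foxo1d/d gave a ratio of 0.61 with an interval of 0.24 to 1.23. Over all 52 members, 10 had no count and 19 had at most 3 summed counts in each genotype, for which no single ratio is printed. They enter the sums and the count past the fold with no minimum, where Krt9 and Krt82 of them passed.

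Outside these classes, Krt23 stood among the simple keratins in level. This type I keratin of glandular and intestinal epithelium had 1755 counts in Foxo1f/f against 1613 in Foxo1d/d, a log2 ratio of -0.18 (-0.24 to -0.13). Length-scaled it had 43.4 and 38.2 CPM per kb, above Krt7 in both genotypes. Krt20, the type I keratin of intestinal and urothelial surface cells, had 20 and 18.7 counts, a log2 ratio of -0.16 (-0.71 to 0.39). Krt222, a shortened keratin-like protein, had 49 and 52.7 counts, a log2 ratio of 0.04 (-0.29 to 0.38), and overlaps another annotated gene. Krt42 had 0 and 4 summed counts.

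The keratins past the fold did not lie in 1 stretch of their clusters. Type I genes other than Krt18 form a cluster on chromosome 11 and type II genes one on chromosome 15. Krt15 and Krt19 are direct neighbours on chromosome 11, with no RefSeq gene between them, and had log2 ratios of 3.44 and 1.22. Krt13, on the other side of Krt15, had 10 and 19 summed counts. Krt14 and Krt17 lie further along the same cluster. In its other part, Krt10 and Krt12 are neighbours with log2 ratios of 0.58 and 0.96, and next to Krt12 are Krt20 and Krt23 with -0.16 and -0.18. On chromosome 15, the genes on either side of Krt5 were Krt6a, with 1 and 4 summed counts, and Krt71, with 0.

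**Figure D4:**
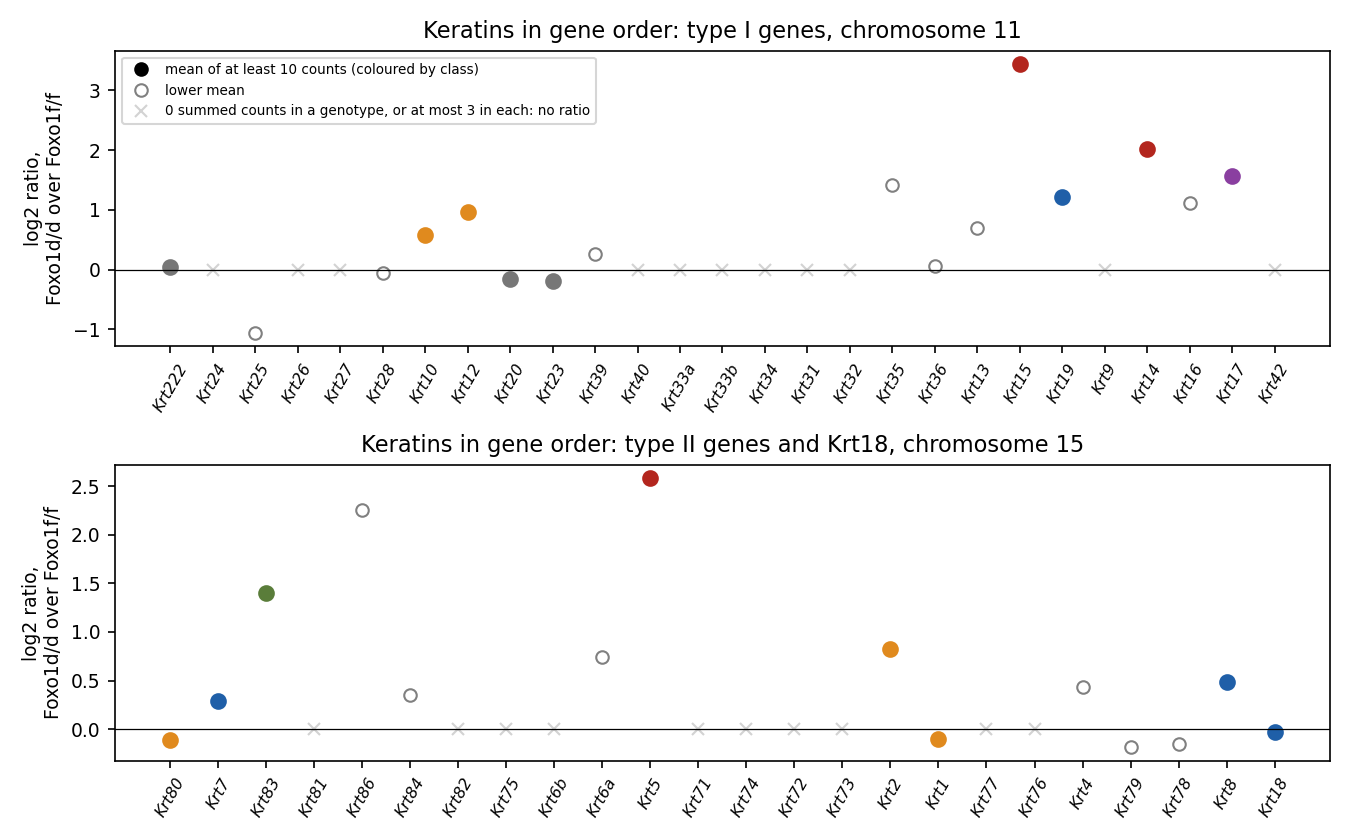
Log2 ratio (Foxo1d/d against Foxo1f/f) for 51 keratins in their order along chromosome 11 (top) and chromosome 15 (bottom), with filled circles for a mean of at least 10 counts, open circles for lower means and crosses where no ratio is given (Krt85 was not matched and is not drawn). Krt15 and Krt19 stand next to each other at 3.44 and 1.22, and Krt5 stands between genes with few or no counts.

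Promoter windows from RefSeq (GRCm38.p6, 250 bases before to 50 after the listed start) were matched by gene number for 35 of the 52 keratins. They were searched on both strands for GTAAACA, the core letters bound by forkhead proteins such as FOXO1, and for TATAAA, the TATA box. Keratins were counted as genes, of which Krt13 had more than 1 window, whereas the shares over all promoters count windows. GTAAACA was in no window of the 35 matched keratins and in 3.65% of all 32851 windows. TATAAA was in the windows of 19 of the 35 keratins and in 13.6% of all windows. By class, TATAAA was in all 7 matched root sheath keratins, 6 of 9 matched hair and nail keratins, 3 of 10 suprabasal, 1 of 3 simple, 2 of 3 other and neither of 2 basal keratins, and not in Krt75. A match describes the letters in a window and is neither a binding site nor a cause. Krt15, Krt17 and Krt19 were not matched. For 6 keratins every listed start lies over 100 bases inside the RefSeq gene. They are Krt10, Krt12, Krt2 and Krt78 (suprabasal), Krt36 (hair and nail) and Krt14 (basal), the last at 1480 bases and not shown. The class counts above include these windows, and Krt10 and Krt12 are among the suprabasal keratins with TATAAA.

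The following 4 windows are shown as 1 stratified and 1 simple gene without either motif (Krt5, Krt18) and 1 of each with TATAAA (Krt12, Krt8), so that the basal gene higher in Foxo1d/d can be read beside the simple pair. Sequences run 5′ to 3′ on the strand of the gene, and capitals mark TATAAA. In Krt12 it starts 29 bases before the listed start, which lies 334 bases inside the annotated gene. In Krt8 it starts 1 base before the listed start and overlaps the same letters on the other strand. Krt5 is at chr15:101712856-101713155 (minus strand), Krt12 at chr11:99422210-99422509 (minus strand), Krt8 at chr15:102004293-102004592 (minus strand) and Krt18 at chr15:102027966-102028265 (plus strand).
Krt5: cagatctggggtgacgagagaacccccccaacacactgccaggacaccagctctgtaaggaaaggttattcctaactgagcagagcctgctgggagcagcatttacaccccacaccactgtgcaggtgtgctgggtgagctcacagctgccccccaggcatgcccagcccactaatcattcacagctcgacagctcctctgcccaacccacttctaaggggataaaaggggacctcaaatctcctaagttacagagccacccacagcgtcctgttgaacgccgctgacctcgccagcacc
Krt12: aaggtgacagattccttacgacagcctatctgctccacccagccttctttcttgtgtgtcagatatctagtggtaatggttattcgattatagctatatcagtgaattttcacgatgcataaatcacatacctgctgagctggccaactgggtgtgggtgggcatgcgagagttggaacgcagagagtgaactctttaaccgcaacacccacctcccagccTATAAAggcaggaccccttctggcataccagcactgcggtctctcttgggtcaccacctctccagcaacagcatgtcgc
Krt8: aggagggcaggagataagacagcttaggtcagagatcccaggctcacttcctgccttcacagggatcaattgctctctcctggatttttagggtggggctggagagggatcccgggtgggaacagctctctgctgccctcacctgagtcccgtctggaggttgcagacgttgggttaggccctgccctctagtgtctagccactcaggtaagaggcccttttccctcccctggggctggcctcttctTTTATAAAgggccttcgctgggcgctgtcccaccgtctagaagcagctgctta
Krt18: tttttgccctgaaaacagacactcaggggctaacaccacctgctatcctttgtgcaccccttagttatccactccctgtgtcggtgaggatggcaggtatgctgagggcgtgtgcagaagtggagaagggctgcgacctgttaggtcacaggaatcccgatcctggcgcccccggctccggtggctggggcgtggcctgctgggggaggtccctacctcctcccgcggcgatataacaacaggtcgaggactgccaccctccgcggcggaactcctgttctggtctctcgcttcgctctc

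Levels of cell type markers are given here beside the keratins. The 14 epithelial markers, all with a mean of at least 10 counts, had a median log2 ratio of 0.26 and ran from -0.90 to 0.86. Their summed level was 929 CPM in Foxo1f/f against 1008 in Foxo1d/d, a log2 ratio of 0.12 (0.10 to 0.13), beside 0.34 (0.32 to 0.36) for the simple keratin sum. The simple keratin sum lay 0.08 above the marker median, a description for which no interval is given since the markers spread widely around it. That difference sets a sum beside a median. As medians, the simple keratins had 0.38 beside 0.26 for the markers. Cdh1, the adhesion molecule of epithelial cells and the marker with the most counts, had a log2 ratio of 0.11. The highest were the epithelial transcription factor Elf3 at 0.86, the splicing factor Esrp1 at 0.52 and Grhl2 at 0.47. The lowest were the protease inhibitors Spint1 at -0.90 and Spint2 at -0.29, and Ovol2 at -0.24. Of the 14, 1 was at least 1.5-fold higher and 1 at least 1.5-fold lower, beside 5.43% and 3.51% of all genes with a mean of at least 10 counts. The same shares stand beside the counts of the lists below.

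Markers of basal and squamous cells other than keratins differed by less than the basal keratins in their median and their sum, though not in every member. Of 21 listed, 20 were in the table and 13 had a mean of at least 10 counts. Their median log2 ratio was 0.25, with 2 at least 1.5-fold higher and 1 at least 1.5-fold lower, beside 5.43% and 3.51% of all genes. Sprr1a, 1 of these 2, reached a mean of 10 only through Foxo1d/d. Summed, the 20 had 61.0 CPM in Foxo1f/f against 67.9 in Foxo1d/d. Trp63, the transcription factor that defines basal cells of stratified epithelia, had means of 90.3 and 100 counts, a log2 ratio of 0.08 (-0.16 to 0.33). Perp, a desmosome protein with the most counts of the list, had a log2 ratio of 0.15.

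Single members of that list stood apart. Sprr1a, a cornified envelope precursor, had 2.33 counts in Foxo1f/f against 39.3 in Foxo1d/d, a log2 ratio of 3.54 (2.93 to 5.36). Ly6d, a surface protein of keratinocytes, had 13 and 36 counts, a log2 ratio of 1.34 (0.87 to 1.98). Serpinb5 was at 0.57, with an interval of -0.01 to 1.25. The lowest were the desmosomal cadherin Dsg3 at -1.22 (-1.63 to -0.88), the cross-linking enzyme Tgm1 at -0.30 and Lgals7 at -0.06. Pkp1, a desmosome plaque protein of stratified epithelia, had 1 summed count in Foxo1f/f against 36 in Foxo1d/d, a log2 ratio of 3.22 (2.54 to 10.5). Ivl had 1 and 12 summed counts, a log2 ratio of 1.85 (0.77 to 8.94). Of the others below the minimum mean, Dmkn had 13 and 26 summed counts, Krtdap 11 and 9 and Lypd3 6 and 6, all with intervals that held a ratio of 1, while Sprr1b and Sprr3 had none. The part of squamous cells in the keratin differences was not tested.

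**Figure D5:**
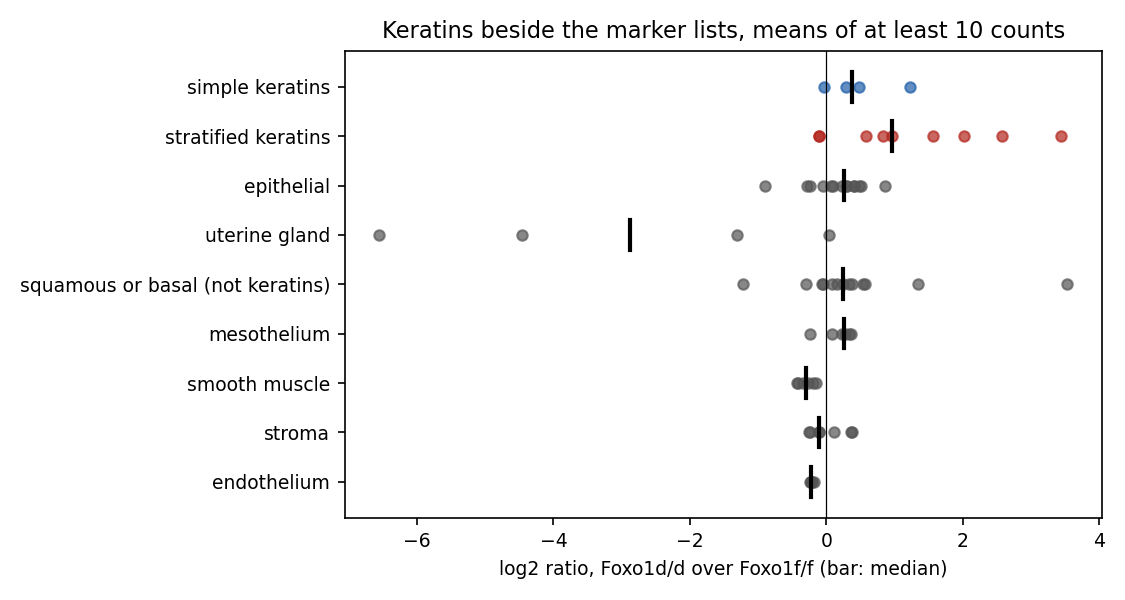
Log2 ratio (Foxo1d/d against Foxo1f/f) for simple keratins, stratified keratins and 7 marker lists, each point a gene with a mean of at least 10 counts and each black bar the median of its row. The median is 0.38 for the simple keratins, 0.96 for the stratified keratins, 0.26 for epithelial markers and 0.25 for basal and squamous markers.

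Mesothelium, which covers the outer uterine wall and also makes simple keratins, was followed with 6 of 7 listed markers. Their median log2 ratio was 0.25. The highest were Msln at 0.36, Lrrn4 at 0.33 and Bnc1 at 0.28. The lowest were Wt1, which stroma also makes and which had the most counts, at -0.24, Upk3b at 0.08 and Upk1b at 0.23. None of the 6 was past 1.5-fold, and their sum was 213 CPM in Foxo1f/f against 198 in Foxo1d/d. Most of this sum was Wt1, with 12453 of the 16714 summed counts in Foxo1f/f, and the other 5 markers had positive log2 ratios.

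The other compartments had medians below 0, though the stromal sum was slightly higher in Foxo1d/d. All 6 smooth muscle markers were lower in Foxo1d/d, with a median of -0.30. They ran from the myosin Myh11, with the most counts, at -0.43, Actg2 at -0.41 and Des at -0.34 to Tagln at -0.27, Cnn1 at -0.20 and Acta2 at -0.15. The 7 stromal markers had a median of -0.11, between Pdgfra at -0.26, Vim at -0.24 and Hoxa10 at -0.11 and Lum at 0.37, Col6a1 at 0.36 and Col1a1, with the most counts, at 0.11. Their sum was 8257 CPM in Foxo1f/f against 8650 in Foxo1d/d, a log2 ratio of 0.07 (0.06 to 0.07). The 5 endothelial markers had a median of -0.22, with Emcn lowest at -0.24, Pecam1, with the most counts, and Cdh5 at -0.22, Kdr at -0.21 and Tek at -0.19. The part of these shifts in the keratin ratios was not tested.

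Gland markers differed between secreted products and the gland transcription factor. Foxa2, needed for uterine gland formation, had 280 and 300 counts, a log2 ratio of 0.04. The secreted proteases of the gland, Prss29 with the most counts and Prss28, had log2 ratios of -4.46 and -6.56, and the carrier protein Ttr had -1.31. Spink1 and Cxcl15 were not in the table.

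Keratin filaments are anchored at desmosomes and hemidesmosomes. Of 10 listed cytolinkers and desmosome plaque proteins, 9 had a mean of at least 10 counts, and none of these 9 was past 1.5-fold, with a median log2 ratio of -0.13. The tenth, Pkp1, had few counts and a log2 ratio of 3.22, as given above. The highest were periplakin Ppl at 0.29, Pkp3 at 0.21 and desmoplakin Dsp at 0.13, the linker that ties keratin to the desmosome. The lowest were Dst at -0.45, Evpl at -0.21 and Pkp2 at -0.18, and Macf1, with the most counts, was at -0.15. Hemidesmosome genes had a median log2 ratio of 0.14 over the 6 reported, while their sum had one of -0.09 (-0.11 to -0.07). Only Lama3 was lower, with 8502 summed counts in Foxo1f/f against 2866 in Foxo1d/d, and the other 5 had positive log2 ratios. Of the 6, 1 was at least 1.5-fold higher and 1 at least 1.5-fold lower, beside 5.43% and 3.51% of all genes. Lamb3 was highest at 0.89 (0.73 to 1.06), with Col17a1 at 0.54 and Itga6, with the most counts, at 0.21. Lama3, a laminin chain of the epithelial basement membrane, was lowest at -1.63 (-1.69 to -1.57), then the integrin Itgb4 at 0.06 and the tetraspanin Cd151 at 0.07.

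Other intermediate filament genes include those of stroma, muscle and nerve and the lamins, which line the nucleus of cells of every kind. Of 13 listed, 10 had a mean of at least 10 counts, with a median log2 ratio of 0.07 and none past 1.5-fold, while the sum of all 13 had one of -0.20 (-0.21 to -0.19). Gfap was highest at 0.33, then the lamin Lmnb1 at 0.28 and Nes at 0.23. The muscle filament Des was lowest at -0.34, then Synm at -0.29 and Vim, the filament of stroma and the member with the most counts, at -0.24.

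Transcription factors known to act on keratin genes were mixed. Of the 10 reported, 7 had a mean of at least 10 counts, with a median log2 ratio of 0.02. Of these 7, none was at least 1.5-fold higher and 2 were at least 1.5-fold lower, beside 5.43% and 3.51% of all genes. Grhl2 was highest at 0.47 (0.40 to 0.55), then Ovol1 at 0.18 and Trp63 at 0.08. Klf4, with the most counts, was at 0.02. Grhl1, a grainyhead-like factor of epidermis, was lowest with 169 and 60.7 counts, a log2 ratio of -1.53 (-1.79 to -1.30). Tfap2c was at -0.69 (-0.94 to -0.46) and Klf5 at -0.26.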

How the data were processed

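RNA-seq libraries of uterus from 3 pools of 2 mice per genotype were made with a poly(A) TruSeq kit. The authors trimmed the reads, mapped them with STAR, removed duplicates with Picard and counted reads per RefSeq gene with HTSeq. Duplicate removal can lower counts of abundant genes. Versions are not given in the sources used here, and the methods name the build mm10 while the submitters' processing notes name mm9. The deposited table holds, for each gene, the authors' mean count per genotype. It also holds the authors' own comparison made with EdgeR, as a fold change, mean log2 CPM, p-value and FDR, none of which was used. The number of unused columns with values of single samples was 0. Multiplied by 3, every mean was whole to within 1e-06, and these summed counts gave the intervals.

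No count test across libraries was run, since the table holds no counts of single libraries. To each mean 1 was added, it was divided by the total of the genotype means, and the log2 ratio was taken. Differences between the log2 ratios of 2 keratin sums carry the exact conditional interval of an odds ratio. Calculations used Python 3.11.15, pandas 2.3.3, numpy 2.4.6 and scipy 1.17.1, and the ratio and interval steps were tested on simulated data. Exon lengths were the union of GENCODE exons of RefSeq transcripts within the RefSeq gene, for 50 of 52 members. Members and lists were chosen with earlier results of these data known. Every keratin with a mean of at least 10 counts was named with its values, and the others by number and range, with names where a class had 5 or fewer. Some further low keratins were named after their values were seen. From each list the 3 highest and 3 lowest log2 ratios and the gene with the most counts were named, as were Foxo1 and all basal or squamous markers with lower means. Lists covered epithelial, gland, basal or squamous, mesothelial, smooth muscle, stromal and endothelial markers, cytolinkers, hemidesmosomes, other intermediate filaments and keratin regulators, and 2 genes of these lists are not reported here. Alternatives were 2 other scalings, pseudocounts of 0.1 and 5, other minimum means, a fold of 2, narrower class definitions and medians in place of sums.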

Additional observations from a re-analysis of the deposited data

How the results depend on the processing

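No paired analysis was possible because no counts of single libraries were held, although the labels number the libraries alike. For the same reason values without single libraries cannot be given, and whether 1 pool carried a difference was not tested. None of the 17 keratins with a mean of at least 10 counts took another sign with 2 other scalings or with pseudocounts of 0.1 and 5, and all 68 of their values stayed within the counting interval.

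With the median gene ratio set to 1, the summed simple keratins had a log2 ratio of 0.32 in place of 0.34. Without Krt18 it was 0.59. The summed stratified keratins had 1.10, which became 2.77 with basal keratins only and 1.37 without Krt10. The stratified minus simple difference of 0.76 became 2.43 with basal keratins only, 1.03 without Krt10 and 0.58 from medians over members with a mean of at least 10 counts. The type I minus type II difference of -0.23 became 0.29 from such medians, an alternative chosen after seeing the data. The stratified share was 4.34% in Foxo1f/f against 7.75% in Foxo1d/d per kilobase of exon, and 0.80% and 4.20% with basal keratins only. The count of 8 keratins at least 1.5-fold higher became 13 of 30 with a minimum mean of 1, 5 of 12 with a minimum of 50 and 18 of 52 with no minimum, with the shares of all genes given above. Those among them that passed a minimum only through Foxo1d/d are also named above. The count of 0 lower became 1 (Krt25) with a minimum of 1 or none. By construction, the class, filter and length settings differ in which genes entered or how they were weighted. Below about 10 counts, the depth leaves intervals spanning several-fold.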

Other observations

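Of 55 other genes whose symbols begin with Krt, 52 were keratin-associated proteins, and 4 of these had any count. Krtap17-1, a keratin-associated protein of hair, had means of 30.7 counts in Foxo1f/f against 9.33 in Foxo1d/d, a log2 ratio of -1.68, opposite in sign to the hair and nail keratin sum. Krtcap2 and Krtcap3, which carry a keratinocyte name but are no keratins, had log2 ratios of 0.09 and 0.17.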
